A study of Mus musculus with 6 samples.

Results

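Bcl2l11 encodes Bim, a BH3-only member of the BCL2 family. It was followed here in mouse multiple myeloma cells through every probe set that the array's annotation gives to this symbol alone, 5 of the 22690 probe sets in the deposited table. A probe set is a group of short probes that yields 1 signal for 1 transcript region. All 5 passed the filter on low signals, so none had to be left untested. The cells are labelled as malignant plasma cells from the bone marrow, a cancer of antibody-secreting cells. Control cells spent 12 h in medium free of serum and without insulin-like growth factor 1 (IGF-1), and the other group spent 12 h in such medium with 100 ng/ml IGF-1. Each group was measured on 3 Affymetrix arrays, numbered 1 to 3 below. The labels used here name no mouse strain or cell line and do not say whether the arrays of a group came from separate cultures, so the spread behind every p-value may be technical.

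Bim is a trigger of the mitochondrial route of cell death. It occupies the groove of pro-survival proteins such as BCL2, BCL-XL and MCL1 and can activate the pore-forming proteins BAX and BAK directly. Its transcript is spliced into several forms, of which BimEL, BimL and BimS are the best known. Growth factors lower Bim by more than 1 route: AKT keeps FOXO transcription factors, known activators of the gene, out of the nucleus, and ERK marks the BimEL protein for degradation. In lymphocytes Bim is required for the death that follows loss of cytokines, and IGF-1 is a survival factor for myeloma cells. The comparison asks whether the Bcl2l11 transcript differs once IGF-1 is added, and whether all of its probe sets show the same.

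The gene lies on the plus strand of chromosome 2, from 128126038 to 128162547 in assembly GRCm38.p6, and RefSeq lists 5 curated and 4 predicted transcripts for it. RefSeq's promoter table holds 2 transcript starts, 1537 bases apart. The 250 bases before each start are shown because FOXO factors are known to bind such DNA, with matches to the FOXO-type words GTAAACA or GTCAACA (searched on both strands) in capitals. Both words were chosen after these sequences had been read.
Bcl2l11 upstream start, chr2:128125788-128126037, plus strand: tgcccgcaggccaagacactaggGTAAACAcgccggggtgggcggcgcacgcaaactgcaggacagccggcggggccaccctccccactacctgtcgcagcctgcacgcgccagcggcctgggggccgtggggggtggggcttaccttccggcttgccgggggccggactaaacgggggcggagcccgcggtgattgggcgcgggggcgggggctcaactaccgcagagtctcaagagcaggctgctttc
Bcl2l11 downstream start, chr2:128127325-128127574, plus strand: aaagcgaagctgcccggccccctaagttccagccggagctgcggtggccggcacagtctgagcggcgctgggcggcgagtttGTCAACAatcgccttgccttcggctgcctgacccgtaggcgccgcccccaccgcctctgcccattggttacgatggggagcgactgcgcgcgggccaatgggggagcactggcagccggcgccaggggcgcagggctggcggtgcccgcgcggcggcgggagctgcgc
GTAAACA occurred once, 227 to 221 bases before the upstream start, and GTCAACA once, 168 to 162 bases before the downstream start. Of all 32851 windows of this length in the table, 3.17% held the first word, 2.07% the second and 5.17% either of them. Because the words were picked from these sequences, the shares cannot test whether the matches are more than chance. The windows were also not matched for their content of G and C. Both windows were rich in G and C (72.0% and 73.2%, against a median of 52.4% over all windows) and held 24 and 30 CG pairs. These matches describe the DNA letters, and no binding or methylation was measured here.

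The signals are MAS5 intensities on a linear scale, scaled to the same trimmed mean in every array. Correlations of log2 signals were 0.9777 to 0.9844 within the groups and 0.9563 to 0.965 between them. Plasma cell markers gave strong signal, with 7 of the 9 listed genes having a probe set and all 7 tested, among them Jchain at 4443 ± 176 in control and 4311 ± 211 (SD, n = 3) with IGF-1. Some neutrophil markers were brighter, among them S100a9 (7358 ± 832 and 6386 ± 356) and Ngp (6089 ± 379 and 5321 ± 262). The share of each cell type in the RNA was not measured. Tnfrsf17, a receptor of plasma cells, read 325.1 ± 17.6 and 224 ± 9.41 (-0.51 ± 0.1 on the log2 scale, adjusted p = 0.008, limma). By brightest probe set it was the 1 marker of the plasma cell list that fell (all genes tested: 8.05% fell). Irf4 and Xbp1 each had 1 other probe set that fell, of 2 and 4 tested. The brightest probe set of Xbp1 read 4953 ± 385 and 4317 ± 110 and did not pass (adjusted p = 0.16, limma). The summed signal of the list did not overlap, at 12410 to 13420 in control and 11590 to 12060 with IGF-1, and the part of this in the result for Bcl2l11 was not tested. In bulk RNA, fewer cells of a type and less RNA per cell cannot be told apart. Under scaling to the spiked hybridization controls 0 of the 7 fell and 1 rose.

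Bcl2l11 signal was lower with IGF-1 in all 5 probe sets. The brightest, 1456005_a_at, read 847.6, 718.9 and 750.2 in control arrays 1, 2 and 3, and 265.8, 325.1 and 304.8 in IGF-1 arrays 1, 2 and 3. The groups were far apart: the lowest control array was 2.21 times the highest IGF-1 array. The mean went from 772 ± 67.1 to 298.5 ± 30.1 (SD, n = 3), which left 38.7% of the control signal. On the log2(signal + pseudocount) scale, where a pseudocount of 15.57 was added to every signal, the difference was -1.33 ± 0.108 (SE) with an adjusted p of 8.1e-05 (limma, Benjamini-Hochberg over 11313 probe sets). It ranked 16th from the bottom among these probe sets, and by brightest probe set only 10 of 6895 genes had a larger fall.

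The next probe set, 1435448_at, read 650.0, 509.5 and 571.0 in the control arrays and 237.6, 270.3 and 269.1 in the IGF-1 arrays. Every IGF-1 array was again below every control array, and 44.9% of the mean control signal was left. The log2 difference was -1.11 ± 0.112 (adjusted p = 0.00033, limma).

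Probe set 1426334_a_at read 299.5, 272.6 and 234.7 in control and 124.8, 144.4 and 145.8 with IGF-1. The groups did not overlap, and the mean fell from 269 ± 32.6 to 138 ± 11.7. The log2 difference was -0.88 ± 0.12 (adjusted p = 0.0016, limma). The suffix _a_at is the manufacturer's mark for probes that recognise several transcript forms of 1 gene. No probe set was assigned to BimEL, BimL or BimS here, because probe sequences were not used.

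Probe set 1435449_at read 288.5, 174.4 and 212.7 in control and 115.9, 128.2 and 122.7 with IGF-1. Its control arrays were the most scattered of the gene, with a coefficient of variation of 25.8%, against 5.04% in its IGF-1 arrays. The groups still did not overlap. The log2 difference was -0.78 ± 0.159 (adjusted p = 0.011, limma), and it was -0.6 without control 1, the highest array.

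The dimmest probe set, 1456006_at, did not pass. It read 88.73, 91.07 and 108.4 in control and 75.94, 77.88 and 39.27 with IGF-1. IGF-1 3 lay apart from the other IGF-1 arrays, and the gap between the groups was narrow, with the lowest control array 1.14 times the highest IGF-1 array. The log2 difference was -0.52 ± 0.203 (adjusted p = 0.11, limma), and -0.27 without IGF-1 3. Its mean signal of 80.2 exceeded that of 58.9% of all probe sets, whereas the brightest Bcl2l11 probe set exceeded 91.6%.

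**Figure D1:**
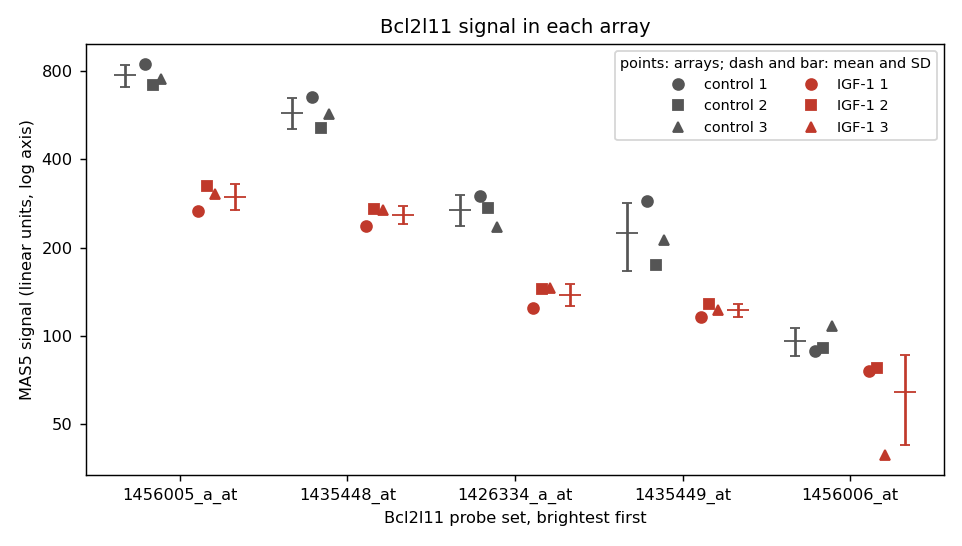
MAS5 signal (log axis) of the 5 Bcl2l11 probe sets, brightest first, in 3 control arrays (grey) and 3 IGF-1 arrays (red), with mean and SD beside the points. Every IGF-1 point lies below every control point of its probe set, and the gap narrows from 1456005_a_at on the left to 1456006_at on the right, where IGF-1 3 is at 39.27.

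In all, 4 of 5 probe sets fell and 0 rose, where 8.28% of all tested probe sets fell and 6.82% rose, 15.1% in all. Each of the 5 had groups that did not overlap, which held for 18.7% of all tested probe sets in this direction. Probe sets of 1 gene read the same RNA from the same arrays, so the 5 are not independent replicates. Averaged over the 5, the gene's mean log2 level was 8.48, 8.21 and 8.31 in control and 7.36, 7.52 and 7.34 with IGF-1. The difference of -0.92 ± 0.097 (SE, n = 3) reached the smallest p that 3 against 3 arrays allow (exact permutation test, two-sided, p = 0.10).

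**Figure D2:**
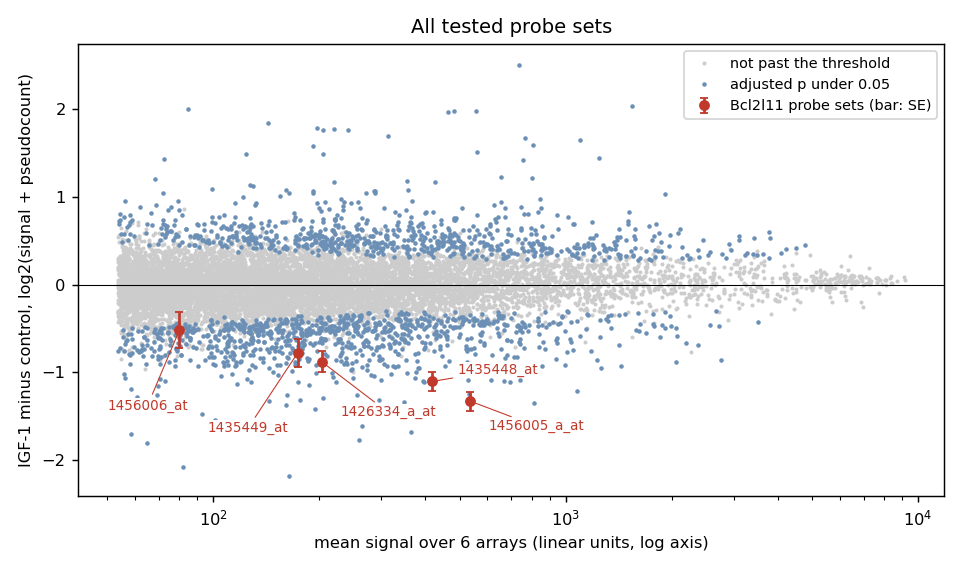
Difference between IGF-1 and control on the log2(signal + pseudocount) scale against mean signal (log axis) for 11313 tested probe sets, with those at an adjusted p under 0.05 in blue and the 5 Bcl2l11 probe sets in red with their SE. The Bcl2l11 points run from -0.52 at a mean signal of 80.2 to -1.33 at 535.4.

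The probe sets differed in the size of the difference. It followed their brightness without exception, from the brightest at -1.33 to the dimmest at -0.52, and so did the plain ratio of mean signals, control over IGF-1, which was 2.59, 2.23, 1.94, 1.84 and 1.49 in that order. The same order was found in 14 of 15 settings in which all 5 probe sets were tested, the exception being the fit without control 2. These 15 include the main fit. They also include fits that changed only the filter, the variance model or the replicate block. Such fits leave the differences as they are, so they could not change the order. The spread of 0.81 between the extremes compares with a median of 0.42 (quartiles 0.31 and 0.54) over the 64 genes with 5 tested probe sets, 8 of which, Bcl2l11 included, had a spread at least as wide. Genes with 4 or more tested probe sets numbered 264, and in 7 of them 4 or more probe sets fell. Besides Bcl2l11 these were Foxp1, Klf7, Mef2a, Rbm39, Stom and Zdhhc14, listed after their values were seen.

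Ratios of 2 probe sets within an array, which cancel any scaling of the array apart from the pseudocount, put numbers on this. The log2 ratio of 1456005_a_at over 1426334_a_at was 1.35 to 1.61 in control and 0.99 to 1.09 with IGF-1, a change of -0.45 ± 0.08 (SE, n = 3). The ratio of 1456005_a_at over 1435448_at was 0.38 to 0.48 in control and 0.15 to 0.25 with IGF-1, a change of -0.22 ± 0.05. In both pairs the groups were separate, with the ratio lower in every IGF-1 array.

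Of the 10 pairs, 6 had groups that did not overlap. The exact permutation test used for the pairs cannot go below 0.10 with 3 against 3 arrays, and no model was fitted to the ratios. These 6 each had the smallest possible p of 0.10, and 0.167 after Benjamini-Hochberg adjustment over the 10 pairs (exact permutation test, two-sided). The 4 pairs that overlapped had exact p-values of 0.3 to 0.9, and 3 of them involved the dimmest probe set. The count of separate pairs was 4 with a pseudocount of 1, 7 with one of 50 and 5 under scaling to the hybridization controls. The remaining one, 1426334_a_at over 1435449_at, changed by -0.1 ± 0.18. In the annotation 2 pairs share a source sequence. Of these 1456005_a_at over 1456006_at changed by -0.81 ± 0.3, and 1435448_at over 1435449_at by -0.33 ± 0.1, while the other pairs ran from -0.1 to -0.59.

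**Figure D3:**
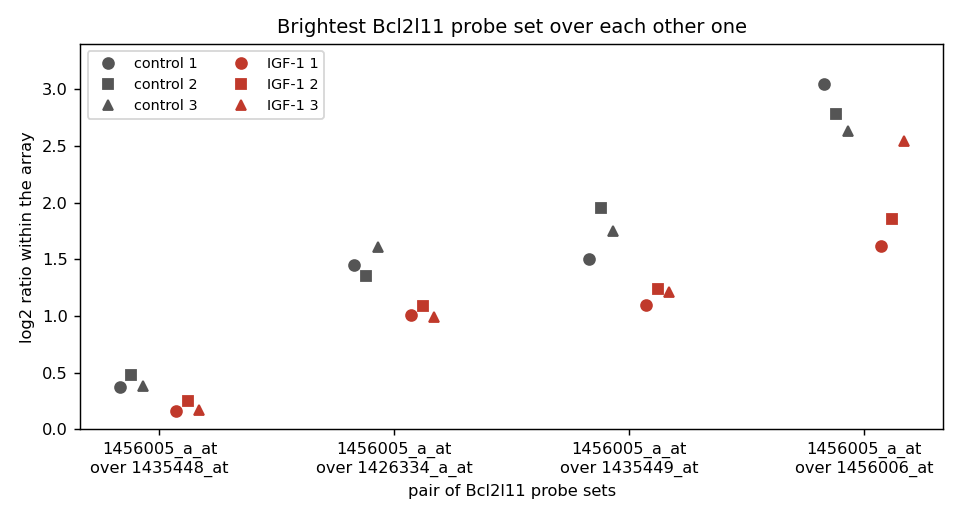
Within-array log2 ratio of the brightest Bcl2l11 probe set, 1456005_a_at, over each of the other 4, in 3 control arrays (grey) and 3 IGF-1 arrays (red). The ratio is lower in all IGF-1 arrays than in all control arrays for each pair, by -0.22 to -0.81 on average.

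Within a group the probe sets shared some but not all of the order of the arrays. Control 1 was the highest control array in 4 of the 5 probe sets and IGF-1 1 the lowest IGF-1 array in 4 of 5. The exception in both cases was 1456006_at, where control 3 was highest and IGF-1 3 lowest. Control 2 was the lowest control array in 3 of 5, whereas 1426334_a_at was lowest in control 3. Replicate spread of the brightest probe set was 8.69% of the mean in control and 10.1% with IGF-1, small beside the loss of signal.

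The 4 calls did not rest on 1 array or on 1 choice of processing, but they were not equally firm. The weakest, 1435449_at, came close to the threshold. Its adjusted p (limma) was 0.044 both without the signal filter and under scaling to the hybridization controls, and 0.036 without IGF-1 1. All 4 probe sets kept an adjusted p under the threshold in every limma fit run, with the brightest between -1.05 and -1.39. The lowest size came from scaling to the spiked hybridization controls, which raised the median of all tested probe sets from -0.01 to 0.25. Under it 246 probe sets fell and 2740 rose, against 937 and 772 otherwise, and the same 4 Bcl2l11 probe sets were among the 2.17% that fell, with 4 of 5 showing separate groups.

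**Figure D4:**
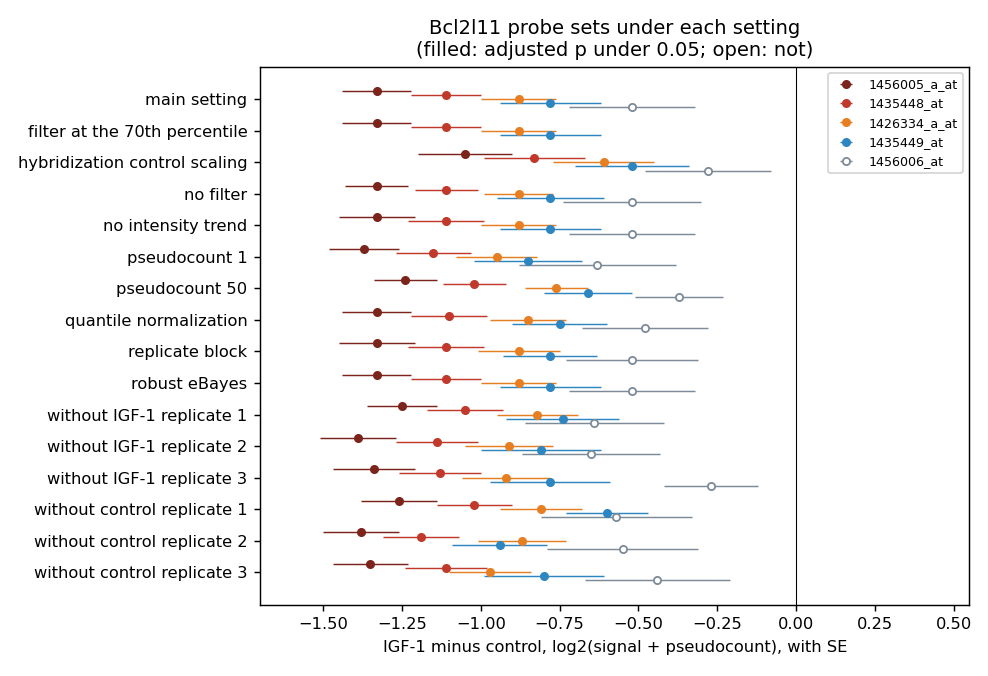
Difference between IGF-1 and control (log2 scale, bars SE) of each Bcl2l11 probe set under the main setting and 15 alternatives, filled where the adjusted p is under 0.05. The dimmest, 1456006_at, is open throughout and was below the filter at the 70th percentile, and the other 4 are filled throughout, with the brightest between -1.05 and -1.39.

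Bim acts through its partners in the BCL2 family, and none of the tested pro-survival or other BH3-only genes passed the threshold. Of 8 pro-survival genes 5 had a probe set and 3 were tested, of which 0 rose and 0 fell (all genes tested: 7.05% rose and 8.05% fell, counted by brightest probe set). Mcl1 and Bcl2l1 encode MCL1 and BCL-XL, pro-survival proteins whose groove Bim occupies. Mcl1 read 1748 ± 131 in control and 1522 ± 71.1 with IGF-1 (log2 difference -0.2 ± 0.09, adjusted p = 0.17, limma), with 0 of 6 probe sets past the threshold. Bcl2l1 had a difference of -0.15 ± 0.11 (adjusted p = 0.43, limma). Bcl2l2, which encodes BCL-W, had one of 0.24 ± 0.14 (adjusted p = 0.3, limma). Scaling to the hybridization controls turned the first 2 of these to 0.09 and 0.13 and took Bcl2l2 past the threshold at 0.49. Bcl2 itself was dim, at 19.9 ± 5.85 and 24.9 ± 6.41, below the filter.

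Of the 7 other BH3-only genes, 4 were tested, with 0 rising and 0 falling (all genes tested: 7.05% rose and 8.05% fell). With so few genes tested, counts of 0 are near these shares, here and for the pro-survival genes. Bbc3, which encodes PUMA, read 225.9 ± 31.1 and 257 ± 2.52 (0.18 ± 0.11, adjusted p = 0.31, limma), and it passed at 0.46 under scaling to the hybridization controls. Pmaip1, which encodes NOXA, read 397 ± 48.5 and 393 ± 46.1 (-0.01 ± 0.12, adjusted p = 0.96, limma). Bad, kept inactive by AKT in its phosphorylated form, had a difference of 0.34 ± 0.31 (adjusted p = 0.5, limma), which ran from -0.09 without control 3 to 0.66 without control 2. Hrk had one of -0.1 ± 0.16 (adjusted p = 0.72, limma). Under the same scaling Pmaip1, Bad and Hrk were at 0.27, 0.6 and 0.13, with no call. Bid, Bmf and Bik were below the filter. Bmf read 33.44, 36.69 and 48.38 in control (39.5 ± 7.86) and 27.72, 24.25 and 28.05 with IGF-1 (26.7 ± 2.1). Bid read 51.4 ± 4.89 and 48.7 ± 15, and Bik 20.2 ± 20.7 and 30.4 ± 5.44. The difference of Bcl2l11 was not tested against those of these genes.

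Bak1, the tested pore-forming effector, rose from 48.9 ± 6.43 to 109.7 ± 19.1 (0.95 ± 0.15, adjusted p = 0.0038, limma), in 1 of its 2 tested probe sets. Its control mean lay below the signal filter of 53.61, so it was tested only through its higher IGF-1 arrays. It was below the filter at the 70th percentile, and with no filter it kept its call (adjusted p = 0.021, limma). Of 6 tested genes of the apoptosome and its partners, 1 rose and 0 fell (all genes tested: 7.05% rose and 8.05% fell). The list median was -0.05 against -0.01 over all genes tested. The gene that rose was Casp9, the caspase activated on the apoptosome, which went from 53.6 ± 5.17 to 94.4 ± 12.4 (0.67 ± 0.14, adjusted p = 0.013, limma). Its control mean too lay just below the filter, it was not tested at the 70th percentile, and with no filter its adjusted p was 0.048 (limma). It rose in 1 of 2 tested probe sets, and its call was lost without IGF-1 3 (0.59, adjusted p = 0.056). Apaf1, the apoptosome scaffold, had a difference of -0.31 ± 0.1 (adjusted p = 0.065, limma), Xiap, a caspase inhibitor, one of -0.29 ± 0.1 (adjusted p = 0.081), and Cycs, cytochrome c, one of 0.2 ± 0.1 (adjusted p = 0.21). Under scaling to the hybridization controls Apaf1 and Xiap were at -0.04 and -0.02, and Cycs passed at 0.49. Bax was not analysed here.

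Transcription factors listed for known or reported links to Bcl2l11 moved in both directions. Of 11 genes 7 were tested, of which 2 rose and 2 fell, with a median of -0.28. Over all genes tested 7.05% rose and 8.05% fell. Cebpb, a C/EBP factor, rose from 438 ± 8.21 to 683 ± 55.8 (0.62 ± 0.09, adjusted p = 0.0028, limma), in 1 of 2 tested probe sets. Ddit3, which encodes CHOP, an activator of Bcl2l11 in endoplasmic reticulum stress, rose by 0.55 ± 0.12 (adjusted p = 0.014, limma), and at 0.48 was no longer called once IGF-1 2 was left out (adjusted p = 0.06). Jun fell by 0.47 ± 0.1 (adjusted p = 0.011, limma), in 1 of 2 tested probe sets. Foxo1 fell by 0.47 ± 0.14 (adjusted p = 0.041) in 1 of 3 tested probe sets, a call lost in 5 of 6 fits that left out 1 array, all but that without IGF-1 1 (adjusted p up to 0.14). Foxo3, named outside the rule as the best known FOXO activator of the gene, had a difference of -0.28 ± 0.15 (adjusted p = 0.26), between -0.45 and -0.17 with 1 array left out (-0.17 without IGF-1 1, -0.45 without IGF-1 3). The other tested genes of the list, also outside the rule, did not pass either. Myb had a larger difference than Foxo3, -0.46 ± 0.15 (adjusted p = 0.061, limma), and E2f1 one of -0.07 ± 0.16 (adjusted p = 0.81, limma). Under scaling to the hybridization controls neither fall was called (Jun -0.19, Foxo1 -0.2) and the Foxo3 difference had an adjusted p of 0.99. Activity of FOXO factors is set mainly by phosphorylation, which arrays do not measure.

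Of 9 genes whose products bind, modify or degrade the Bim protein 5 were tested, of which 1 rose and 0 fell. The shares over all genes tested were 7.05% rising and 8.05% falling. Dynll1, the dynein light chain that holds Bim at microtubules, rose from 1464 ± 123 to 1911 ± 102 (0.38 ± 0.09, adjusted p = 0.022, limma), in 3 of 3 probe sets. Leaving out control 2 or IGF-1 1 or 2 ended its call (adjusted p up to 0.073), as did testing all probe sets with no signal filter (0.055). The related Dynll2 had a difference of 0.27 ± 0.1 (adjusted p = 0.094), the kinase gene Mapk8 had -0.18 ± 0.11, and the ubiquitin ligase subunit Fbxw11 had 0.17 ± 0.11. Under scaling to the hybridization controls Dynll2 and Fbxw11 passed, at 0.55 and 0.45, and Mapk8 was at 0.08.

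Among 10 tested modifiers of histones and DNA, which set how open a promoter is, 1 rose, 1 fell and 8 did not pass, with a median of 0.04. These counts are near the shares over all genes tested, of which 7.05% rose and 8.05% fell. Both called genes of this list encode acetyltransferases. Kat2a rose by 0.42 ± 0.12 (adjusted p = 0.039, limma), in 1 of 3 tested probe sets, and lost its call without control 2 or 3 or IGF-1 2 or 3 (adjusted p up to 0.13), with the replicate number as a block (0.058) and without the signal filter (0.082). Kat2b fell by 0.4 ± 0.09 (adjusted p = 0.019, limma) and was no longer called when control 2, IGF-1 1 or IGF-1 3 was left out (adjusted p up to 0.066) or under scaling to the hybridization controls. The deacetylase gene Hdac1 (0.15 ± 0.09) and the DNA methyltransferase gene Dnmt1 (0.19 ± 0.09) did not pass, but did under that scaling, at 0.43 and 0.47.

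**Figure D5:**
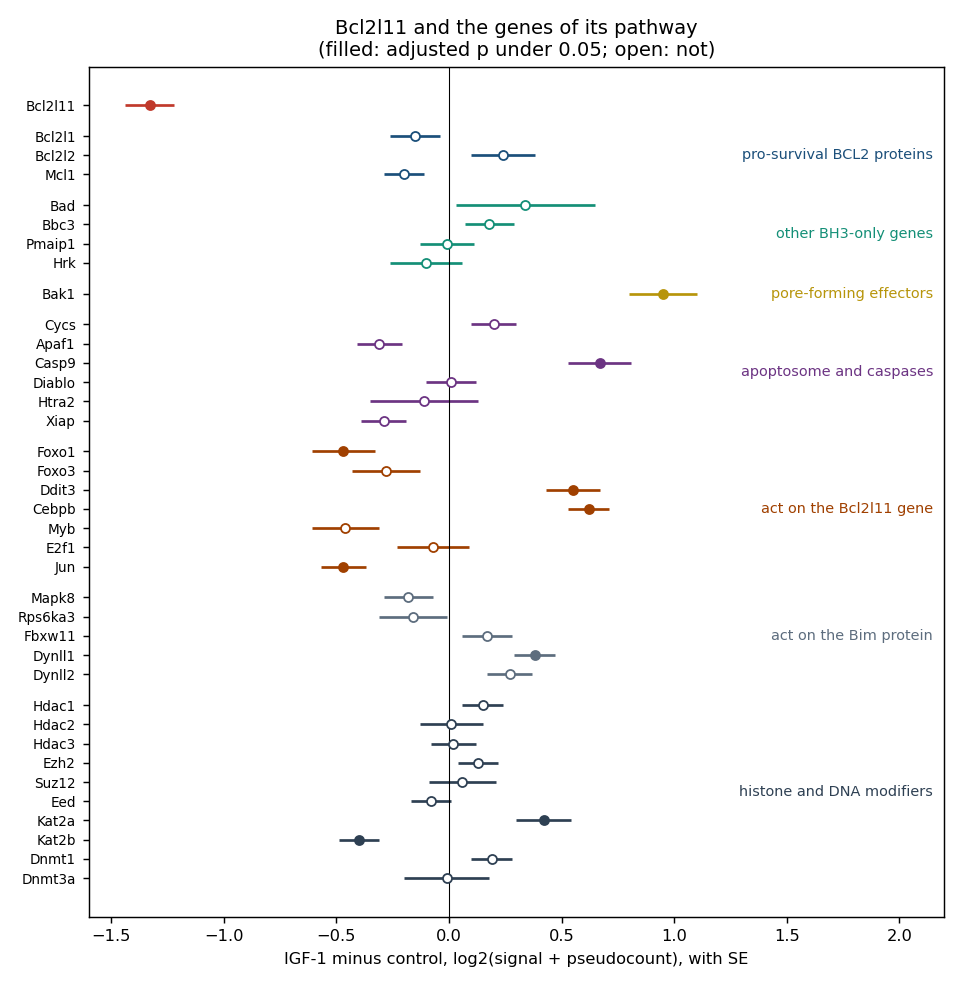
Difference between IGF-1 and control (log2 scale, bars SE) of the brightest probe set of Bcl2l11 and of each tested gene on 7 lists, filled where the adjusted p is under 0.05. Bcl2l11 at -1.33 lies at the left edge, Bak1 at 0.95 lies farthest right, and every pro-survival and other BH3-only gene is open.

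Genes whose pattern over the 6 arrays was most like that of 1456005_a_at were found by the root mean square difference of centred log2 signals, a measure that in 2 well separated groups mostly reflects the group difference. The closest was Themis2, a signalling adaptor of B cells and macrophages, at 0.125, which fell from 507 ± 59.7 to 190 ± 13.4. It was followed by Myc, a growth-promoting transcription factor (0.136), Nr1d2, a repressor of the circadian clock (0.16), and the potassium channel gene Kcnn4 (0.184). Cidea, which encodes a lipid droplet protein, had 0.184 and Ypel3 had 0.189. All 6 fell, by 1.09 to 1.35 on the log2 scale, and kept their calls in all 6 fits without 1 array. They were picked for likeness to a fallen probe set in these same arrays, so such falls and calls follow from the choice. The second Bcl2l11 probe set, 1435448_at, was closer than any other gene, at 0.121. The probe sets 1426334_a_at, 1435449_at and 1456006_at had 17, 58 and 676 genes ahead of them.

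Of the nearest annotated genes on chromosome 2 that have a probe set, those above the filter showed no call (all genes tested: 7.05% rose and 8.05% fell). With so few genes tested, no call is near these shares. Bub1, a mitotic checkpoint kinase gene before Bcl2l11, had a difference of 0.27 ± 0.15 (adjusted p = 0.25, limma), and Anapc1, a subunit of the anaphase-promoting complex after it, had 0.03 ± 0.14 (adjusted p = 0.9). Mal, also before it, had 0.17 ± 0.12 (adjusted p = 0.39). Mall, Mertk and Fbln7 were below the filter.

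Some markers of myeloid cells, in which Bcl2l11 is also known to be expressed, passed the threshold, most of them lower with IGF-1 (all genes tested: 8.05% fell and 7.05% rose). The summed signal of 10 neutrophil markers, all 10 tested, was 25910 to 31160 in control and 23840 to 26690 with IGF-1, and 2 fell while 8 did not pass. With 1 array left out 0 to 3 fell, 0 without IGF-1 2 and 1 without control 2, control 3 or IGF-1 1. For 8 macrophage and monocyte markers, all 8 tested, the sum was 5808 to 7837 and 4945 to 6824, with 4 that fell, 1 that rose (0 without IGF-1 2) and 3 that did not pass. Between 1 and 5 of them fell with 1 array left out, and 1 was left in each fit lacking control 2 or 3 or IGF-1 1 or 2. Under scaling to the hybridization controls 0 neutrophil markers fell, and of the macrophage markers 1 fell and 1 rose. Csf1r, a receptor of macrophages, fell from 671 ± 185 to 317 ± 55.6 in 1 of its 3 tested probe sets. Cd68, a lysosomal protein of macrophages, rose from 935.4 ± 52.9 to 1249 ± 43.1 (adjusted p = 0.012, limma). Adgre1, Lyz2 and Fcgr1 did not pass. No marker of either list was at 0, and their part in the result for Bcl2l11 was not tested. Of the T and NK cell markers 1 of 6 with a probe set was above the filter, and Cd3e read 9.6 ± 0.814 and 14.2 ± 6.17. Of 3 tested erythroid markers 1 rose, Slc4a1 (0.54, adjusted p = 0.017, limma), which no longer passed once IGF-1 1, IGF-1 2 or control 2 had been left out, and neither of 2 tested stromal and endothelial markers passed. Ratios of 3′ to 5′ signal of Gapdh, a measure of RNA integrity, overlapped between the groups (0.7511 to 0.843 in control and 0.7482 to 0.8049 with IGF-1).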

How the data were processed

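Biotin-labelled cRNA of 6 samples was hybridised to Affymetrix arrays. The deposited values are linear intensities, 1 per probe set. The submitters' processing notes name MAS5 and GCOS as the authors' tools. Each array has a trimmed mean (2% off each end) of 150.1. Program versions were not given in the sources used here. Such scaling takes total RNA output as equal between groups, and oligo-dT priming, per the labels' protocols, favours 3′ ends. The number of arrays limits the precision.

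Signals were tested as log2(signal + 15.57), the 25th percentile of all signals, in limma 3.58.1 under R 4.3.3 (lmFit, eBayes with trend, two-sided). The 11313 probe sets with a mean signal above 53.61, the median, entered, without 64 control probe sets. P-values were adjusted by Benjamini-Hochberg, with a threshold of 0.05. A gene was read from its brightest tested probe set. Probe sets were named from the platform annotation: 20380 carried 1 symbol, 691 several and 1555 none, and 20351 matched RefSeq genes, which changed 0 symbols. Genes were named by a fixed rule: every Bcl2l11 probe set, all tested BCL2 family genes, up to 4 genes of each other list by adjusted p, the 6 genes most alike and the 3 measured neighbours on each side. Cell type markers and genes below the filter were named as examples after their values were seen. No label names a batch. The members, lists and tests were chosen with earlier results of these data known. The fit was tested on simulated data. Alternatives covered the pseudocount, filter, normalization, eBayes settings, replicate block and each array left out. Same-numbered arrays deviated together weakly (correlations 0.1202, -0.0334 and 0.1269), so the numbers were not taken as pairs. Tables were handled with Python 3.11.15 (pandas 2.3.3, numpy 2.4.6, scipy 1.17.1) and drawn with matplotlib 3.10.9.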

Additional observations from a re-analysis of the deposited data

How the results depend on the processing

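The brightest Bcl2l11 probe set and the count of 4 fallen probe sets kept their direction and their side of the threshold under all 15 alternatives. With 1 array left out, the brightest lay between -1.39 and -1.25, the count stayed at 4 and the mean over probe sets lay between -0.98 and -0.85. In these fits 6 to 9 of the 10 pairs had separate groups (9 without IGF-1 3). Leaving out an array cannot make separate groups overlap, so this number could not fall below 6 and says nothing about robustness. It was 4 with a pseudocount of 1, 5 under hybridization control scaling and 7 with a pseudocount of 50. Scaling to the hybridization controls moved the mean over probe sets from -0.92 to -0.66 and the calls over all probe sets from 1709 to 2986, and no signal filter left 946. With 1 array left out there were 897 to 1451 calls, the fewest without IGF-1 2, then control 2 (954), IGF-1 3 (1050) and control 3 (1137). With the replicate block the brightest probe set had -1.33 ± 0.12 (adjusted p = 0.00058, limma), 4 probe sets fell and 1732 were called in all, and of the genes named from the lists the call of Kat2a alone was lost. The mean without the dimmest probe set, an alternative chosen after seeing the data, was -1.02. MAS5 detection calls were not used, so how far the dimmest probe set lies above background is unknown, and 3 arrays a group gave it a standard error of 0.2.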
